A study of Mus musculus with 6 samples.

Results

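The kallikrein-related proteases of the epidermis, their inhibitor Spink5 and the membrane protease St14 were followed in sorted mouse epidermal cells with and without K14-Cre. The members were 10 genes of the 38924 in the count table, taken by symbol and matched to their Ensembl identifiers: Klk5, Klk6, Klk7, Klk8, Klk10, Klk11, Klk13 and Klk14, together with Spink5 and St14. Every member had enough reads to be tested, so none was lost to the filter on low counts.

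Kallikrein-related peptidases are secreted serine proteases made in the upper living layers of the epidermis. In the cornified layer they cleave the corneodesmosomes that hold dead cells together, which lets those cells be shed in the process called desquamation. Klk5 and Klk7 are the best studied of them, one with a trypsin-like and the other with a chymotrypsin-like specificity. Spink5 encodes LEKTI, a multidomain inhibitor of these proteases, and loss of human SPINK5 causes Netherton syndrome, a disease with premature shedding and a defective skin barrier. St14 encodes matriptase, a membrane-bound serine protease of keratinocytes that acts upstream in this protease network.

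RNA was sequenced from purified CD49f+ epidermal cells, CD49f being the alpha 6 integrin found on the surface of basal keratinocytes. In all, 3 libraries came from Rnaseh2b flox/flox, K14-Cre+ mice and 3 from Rnaseh2b flox/flox, K14-Cre- mice, so that both groups carried the floxed alleles. K14-Cre is a recombinase driven by the keratin 14 promoter, which is active in basal keratinocytes and in the skin appendages that arise from them. Age is not given in the labels, and nothing there says that the libraries of a group came from separate animals. The p-values therefore judge the group difference against the spread between these libraries, part of which may be technical.

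Library totals ran from 23186065 to 31718094 counts in K14-Cre+ cells and from 22948779 to 25362538 counts in K14-Cre- cells, and a floor of 3 counts corresponded to 0.0922 to 0.143 CPM, the count scaled to a common library total. Rnaseh2b, the floxed gene, had 172, 90 and 69 counts in K14-Cre+ libraries, against 543, 504 and 570 in K14-Cre- libraries. Krt14 lay at 5298, 5300 and 5851 CPM in K14-Cre+ cells and at 5451, 4601 and 5710 CPM in K14-Cre- cells. Itga6, which encodes the sorted surface protein, lay at 322, 290 and 409 CPM in K14-Cre+ cells and at 291, 316 and 290 CPM in K14-Cre- cells. Krt10, a keratin of the layers above the basal one, was more abundant than both, with 61601 ± 8070 CPM in K14-Cre+ cells and 47810 ± 6294 CPM in K14-Cre- cells (SD, n = 3 each). K14-Cre+ replicate 3 stood apart from the other libraries of its group: the chi-square per degree of freedom between counts was 57.5 and 39.4 for its pairs with replicates 1 and 2, against 12.4 between those and 7.86 to 11.7 among K14-Cre- libraries. Values of the members are therefore given with and without it.

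The 8 kallikreins lie on the forward strand of chromosome 7 within one cluster, from Klk14 at chr7:43690418-43695536 to Klk5 at chr7:43842269-43851181 (mm10). The kallikreins each have between 5 and 7 exon blocks. RefSeq start sites on GRCm38.p6 gave 10 promoter windows for the 8 kallikreins, each of the 200 bases before a start. Printed are those of Klk7, Klk5 and Klk8, the kallikreins with the most reads per exon length in K14-Cre+ cells, and that of Klk10, whose groups differed least. All lie on the forward strand, at chr7:43811094-43811293 for Klk7, chr7:43842069-43842268 for Klk5, chr7:43797377-43797576 for Klk8 and chr7:43780854-43781053 for Klk10, and capitals mark CACCC or its reverse complement GGGTG.
Klk7: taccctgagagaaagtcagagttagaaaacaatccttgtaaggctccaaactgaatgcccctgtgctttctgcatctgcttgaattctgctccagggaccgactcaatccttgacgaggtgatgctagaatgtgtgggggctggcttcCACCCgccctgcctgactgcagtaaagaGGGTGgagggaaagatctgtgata
Klk5: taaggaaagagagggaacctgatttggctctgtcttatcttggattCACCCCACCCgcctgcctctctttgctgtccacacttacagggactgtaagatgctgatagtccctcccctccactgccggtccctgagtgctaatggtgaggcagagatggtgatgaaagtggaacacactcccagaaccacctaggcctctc
Klk8: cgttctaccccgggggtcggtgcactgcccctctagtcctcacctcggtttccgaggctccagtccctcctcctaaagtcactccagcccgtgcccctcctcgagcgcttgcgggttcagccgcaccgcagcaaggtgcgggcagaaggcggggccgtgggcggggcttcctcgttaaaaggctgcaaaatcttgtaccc
Klk10: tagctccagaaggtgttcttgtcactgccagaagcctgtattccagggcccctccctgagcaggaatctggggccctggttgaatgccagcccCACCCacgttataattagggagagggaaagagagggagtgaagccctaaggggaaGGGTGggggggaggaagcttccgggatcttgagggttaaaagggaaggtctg
The motif CACCC, on either strand, was found in 7 of the 10 kallikrein windows and in 45.5% of 32851 windows of the same length over all genes. It was picked for the capitals after its matches had been seen, from 15 short motifs searched on both strands. TATAA was found in 1 window, that of Klk10, against 18.5% of all windows. No kallikrein window held TATAAA, which 9.96% of all windows held, or CCAAT, which 29.3% held. None held TGANTCA, found in 5.48% of all windows, AACCNGTT, found in 1.45%, or TTGCGCAA, found in 0.134%. The motif CATG was found in 5 of the 10 windows, against 46% of all windows, and GATA also in 5, against 45.4%. Windows with CANNTG numbered 6, against 58.2% of all windows, and those with CCTGG numbered 7, against 56.3%. The motif GGGCGG was found in 4 windows, against 31% of all windows, CCCGCC likewise in 4, against 30.7%, and ACATG, which contains CATG, in 4, against 22.8%. TATA, which also lies within TATAA, was found in 1 window, against 28.1%.

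Spink5 was 1.63 times as abundant in K14-Cre+ cells as in K14-Cre- cells, and Klk6 2.01 times, but neither passed the adjusted threshold of 0.05 in edgeR, and the most abundant kallikreins differed less. In edgeR's quasi-likelihood test with Benjamini-Hochberg adjustment over 15525 genes, 0 of the 10 members passed, against 0.515% of all genes. At an unadjusted p under 0.05, 3 members were higher in K14-Cre+ cells, Klk6, Klk14 and Spink5, against 10.3% of all genes. The Wald test of DESeq2 called 2 members higher, Klk6 and Spink5, against 3.6% of all genes, and limma-voom called 0, against 0.425% of all genes called in either direction. Groups did not overlap for 4 members, Klk6, Klk7, Klk14 and Spink5, each higher in every K14-Cre+ library than in any K14-Cre- library, against 14.1% of all genes. The fitted log2 fold change was positive for 9 members and negative for 1, with a median of 0.33, while over all genes 7608 were positive and 7917 negative, with a median of -0.0048. Without K14-Cre+ replicate 3 the median of the members was 0.07. In sorted bulk cells, a larger share of cells making a transcript and more of it per cell cannot be told apart.

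**Figure D1:**
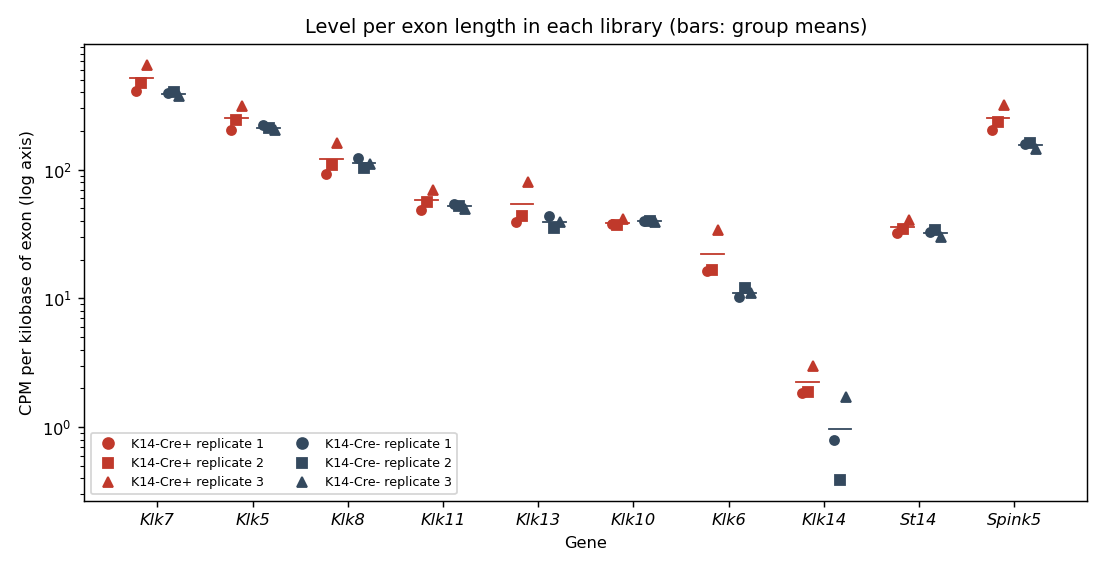
Level of each member in CPM per kilobase of exon on a log axis, for K14-Cre+ (red) and K14-Cre- (dark) libraries, with a point for each of 3 libraries and a bar for the group mean. The red triangle, K14-Cre+ replicate 3, is the highest K14-Cre+ point for each gene, and the groups are apart for Klk6, Klk7, Klk14 and Spink5.

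Spink5 lies on the forward strand of mm10 at chr18:43963235-44022501 with 32 exon blocks. The gene had 968, 1126 and 1532 CPM in K14-Cre+ libraries, against 762, 767 and 690 CPM in K14-Cre- libraries. The groups were apart, with the lowest K14-Cre+ library above the highest K14-Cre- library, and the K14-Cre+ libraries were spread more widely. Its mean was 1209 ± 291 CPM in K14-Cre+ cells and 740 ± 43.3 CPM in K14-Cre- cells (SD, n = 3 each). The log2 fold change was 0.71 (SE 0.17, 95% interval 0.31 to 1.11), with an edgeR p of 0.00397 and an adjusted p of 0.121. DESeq2 gave an adjusted p of 0.00258 and limma-voom one of 0.121. Leaving out K14-Cre+ replicate 3 lowered the log2 fold change to 0.50, and with the smaller spread edgeR's adjusted p was then 0.0369. With any other single library left out, edgeR's adjusted p lay between 0.0889 and 0.387. Over the 14 alternative settings the log2 fold change of Spink5 lay between 0.50 and 0.85.

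Klk5, Klk7 and Klk14 are proteases that LEKTI is known to inhibit in human skin. Klk7, a chymotrypsin-like enzyme that cleaves corneodesmosin, had 718, 820 and 1143 CPM in K14-Cre+ libraries, against 688, 696 and 658 CPM in K14-Cre- libraries. The groups did not overlap, although K14-Cre+ replicate 1 lay only a little above the highest K14-Cre- library. The log2 fold change was 0.39 (SE 0.17, 95% interval -0.01 to 0.79), with an edgeR adjusted p of 0.272, and it was 0.18 without K14-Cre+ replicate 3. Klk5, a trypsin-like enzyme that activates other kallikreins of human skin, had 254, 302 and 389 CPM in K14-Cre+ libraries, against 276, 259 and 251 CPM in K14-Cre- libraries. Here the groups overlapped, with K14-Cre+ replicate 1 inside the range of the K14-Cre- libraries. Its log2 fold change was 0.27 (SE 0.15, 95% interval -0.10 to 0.63), with an edgeR adjusted p of 0.386, and it was 0.09 without K14-Cre+ replicate 3. Klk14, also trypsin-like, was rare, with 76, 54 and 80 counts (2.34, 2.39 and 3.80 CPM) in K14-Cre+ libraries, against 25, 12 and 57 counts (1.003, 0.493 and 2.17 CPM) in K14-Cre- libraries. Its groups did not overlap, but the K14-Cre- libraries were far apart from each other. The log2 fold change of 1.20 had a wide 95% interval of 0.04 to 2.36 (SE 0.49), an edgeR p of 0.0445 and an adjusted p of 0.255. It was 0.94 without K14-Cre+ replicate 3, 0.83 without K14-Cre- replicate 2 and 1.91 without K14-Cre- replicate 3. Of the 50-base words in Klk14 transcripts, 21% also occur, on either strand, in transcripts of other genes, so its count is uncertain. For Klk8 the share is 21.7%, all of it with 2310002F09Rik, a gene described beside Klk8. Klk14 shares 287 exon bases with that same gene, and the part of its 21% that this overlap makes up was not separated.

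Klk6, a trypsin-like enzyme known also from brain, had 23.6, 24.4 and 49.3 CPM in K14-Cre+ libraries, against 14.8, 17.7 and 15.9 CPM in K14-Cre- libraries. K14-Cre+ replicate 3 was well above the other libraries of its group, and those were in turn above every K14-Cre- library. The mean was 32.4 ± 14.6 CPM in K14-Cre+ cells and 16.1 ± 1.44 CPM in K14-Cre- cells (SD, n = 3 each). The log2 fold change was 1.003 (SE 0.29, 95% interval 0.33 to 1.68), with an edgeR p of 0.00946 and an adjusted p of 0.160. DESeq2 gave an adjusted p of 0.0130 and limma-voom one of 0.191. Without K14-Cre+ replicate 3 the log2 fold change of Klk6 was 0.57, with an edgeR adjusted p of 0.0302. With any other single library left out, the edgeR adjusted p of Klk6 lay between 0.111 and 0.423.

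The other 4 kallikreins overlapped between the groups. Klk8, also called neuropsin, had 122, 145 and 214 CPM in K14-Cre+ libraries, against 164, 137 and 148 CPM in K14-Cre- libraries, with the lowest and the highest library both in the K14-Cre+ group. Its log2 fold change of 0.10 (SE 0.20, 95% interval -0.37 to 0.57, adjusted p 0.814 in edgeR) was -0.16 without K14-Cre+ replicate 3 and -0.03 when libraries were scaled by total count. Klk13 had 40.4, 44.9 and 82.3 CPM in K14-Cre+ libraries, against 45.2, 36.5 and 40.7 CPM in K14-Cre- libraries. Only K14-Cre+ replicate 3 was clear of the K14-Cre- range, and the log2 fold change of 0.45 (SE 0.26, 95% interval -0.17 to 1.07, adjusted p 0.388 in edgeR) was 0.06 without it. Klk11 had 70.1, 81.4 and 101 CPM in K14-Cre+ libraries, against 78.3, 75.7 and 72.1 CPM in K14-Cre- libraries, a log2 fold change of 0.16 (SE 0.13, 95% interval -0.15 to 0.47, adjusted p 0.533 in edgeR). Leaving out K14-Cre+ replicate 3 brought it to 0.01. Klk10 was the most even member, with 51.4, 50.1 and 56.3 CPM in K14-Cre+ libraries, against 54.6, 54.5 and 52.7 CPM in K14-Cre- libraries. Its log2 fold change was -0.04 (SE 0.07, adjusted p 0.810 in edgeR), and the 95% interval of -0.20 to 0.13 was the narrowest among the members. Without K14-Cre+ replicate 3 it was -0.09. Exons of 2310002F09Rik, a gene on the opposite strand, cover 27.9% of the exon length of Klk8 and 22.6% of that of Klk14. That gene had 88, 80 and 65 counts in K14-Cre+ libraries, against 75, 76 and 69 in K14-Cre- libraries, a total that is small beside that of Klk8 and of the same order as that of Klk14.

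St14, or matriptase, lies on the reverse strand of mm10 at chr9:31089402-31131853 with 18 exon blocks. It had 147, 158 and 187 CPM in K14-Cre+ libraries, against 151, 157 and 138 CPM in K14-Cre- libraries. The groups overlapped, with only K14-Cre+ replicate 3 clearly above the K14-Cre- range. The log2 fold change was 0.14 (SE 0.11, 95% interval -0.11 to 0.39), with an edgeR adjusted p of 0.511. It was 0.03 without K14-Cre+ replicate 3 and 0.01 under total count scaling. Spint1 encodes HAI-1, an inhibitor of matriptase, and had 102 ± 13.0 CPM in K14-Cre+ cells and 93.1 ± 3.54 CPM in K14-Cre- cells (SD, n = 3 each). The ratio of St14 to Spint1 per exon length was 0.964, 0.983 and 0.966 in K14-Cre+ libraries, against 1.0002, 0.977 and 0.920 in K14-Cre- libraries. These ratios overlapped, and their means differed by 0.01 on the log2 scale.

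**Figure D2:**
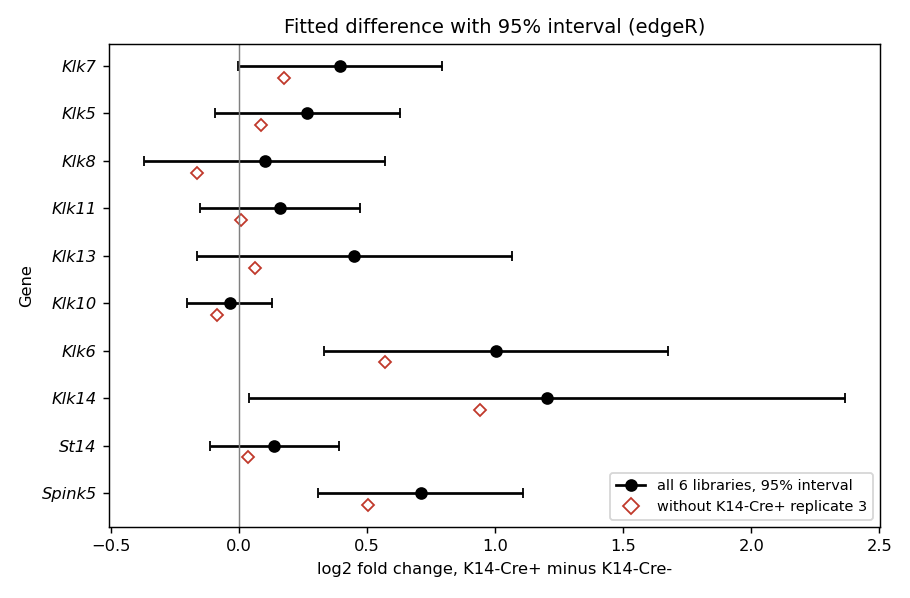
Fitted log2 fold change of each member, K14-Cre+ minus K14-Cre-, with black points and bars for the estimate and its 95% interval over 6 libraries and open red diamonds for the estimate without K14-Cre+ replicate 3. Intervals of Klk6, Klk14 and Spink5 lie above 0, and each diamond lies to the left of its black point.

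To compare genes with each other, CPM was divided by exon length in kilobases. Klk7 led the kallikreins with a mean of 512 CPM per kilobase in K14-Cre+ cells and 390 in K14-Cre- cells. Klk5 followed with 254 in K14-Cre+ cells and 211 in K14-Cre- cells, then Klk8 with 121 in K14-Cre+ cells and 113 in K14-Cre- cells. In K14-Cre+ cells Spink5, at 253 CPM per kilobase, overlapped with Klk5, whereas in K14-Cre- cells, at 155, every library of Spink5 lay below every library of Klk5. Klk11 at 58.4, Klk13 at 54.1, Klk10 at 38.9, St14 at 35.8 and Klk6 at 22.3 CPM per kilobase came next in K14-Cre+ cells, and each overlapped with its neighbour in that order. In K14-Cre- cells the same genes lay at 52.2, 39.5, 39.8, 32.5 and 11.1 CPM per kilobase, and among neighbours there only Klk10 and Klk13 overlapped. Klk14 was lowest, with 2.24 CPM per kilobase in K14-Cre+ cells and 0.961 in K14-Cre- cells.

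The 8 kallikreins summed to 852, 979 and 1359 CPM per kilobase in K14-Cre+ libraries, against 890, 852 and 832 in K14-Cre- libraries, and these sums overlapped. Klk7 made up 48.3%, 48.0% and 48.2% of the sum in K14-Cre+ libraries, against 44.3%, 46.8% and 45.3% in K14-Cre- libraries. The share of Klk7 was thus nearly the same in every K14-Cre+ library although the sum differed widely, and it lay above the K14-Cre- range. Klk5 made up 23.1% to 24.9% in K14-Cre+ libraries and 24.3% to 24.99% in K14-Cre- libraries. The share of Klk8 was 10.9% to 11.9% in K14-Cre+ libraries and 12.1% to 13.95% in K14-Cre- libraries. No test was made of these shares.

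Set against Spink5 in the same library, the kallikreins with the most reads were relatively lower in K14-Cre+ cells. Klk7 per Spink5, per exon length, was 2.03, 1.997 and 2.05 in K14-Cre+ libraries, against 2.48, 2.49 and 2.62 in K14-Cre- libraries. The log2 ratio had an SD of 0.018 in K14-Cre+ cells and 0.044 in K14-Cre- cells (n = 3 each), so this ratio varied little between libraries whose levels of Klk7 and Spink5 differed. Klk5 per Spink5 was 1.01, 1.04 and 0.981 in K14-Cre+ libraries, against 1.40, 1.31 and 1.40 in K14-Cre- libraries. Klk8 per Spink5 was 0.457, 0.466 and 0.506 in K14-Cre+ libraries, against 0.780, 0.645 and 0.775 in K14-Cre- libraries. Neither pair of groups overlapped, and the mean log2 ratio was lower by 0.32 for Klk7, 0.44 for Klk5 and 0.62 for Klk8 in K14-Cre+ cells. Klk10 and Klk11 were also lower without overlap, with differences of -0.72 and -0.54, while Klk6, Klk13 and Klk14 overlapped. In all, 5 of 8 kallikreins had a lower ratio to Spink5 without overlap, against 75.4% of all genes, and 0 of 8 a higher one, against 0.49% of all genes. A lower ratio was therefore what most genes had.

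**Figure D3:**
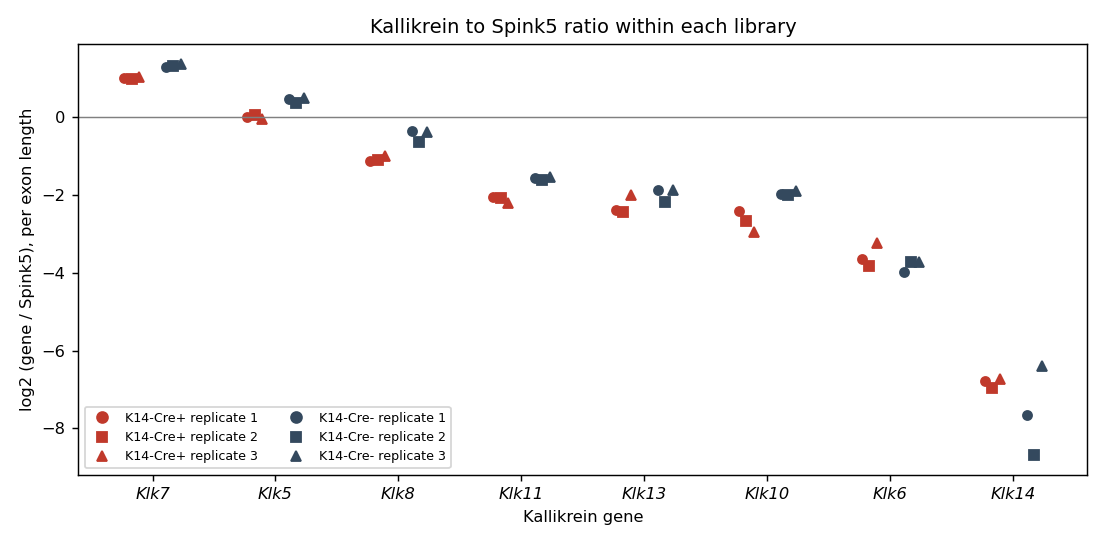
Log2 ratio of each kallikrein to Spink5 within each library, per exon length, with K14-Cre+ libraries in red left of K14-Cre- libraries in dark. The groups are apart for Klk5, Klk7, Klk8, Klk10 and Klk11 and overlap for Klk6, Klk13 and Klk14.

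From Klk14 to Klk5, in the order in which the genes lie, the log2 fold changes of the members were 1.20 for Klk14, 0.45 for Klk13, 0.16 for Klk11, -0.04 for Klk10, 0.10 for Klk8, 0.39 for Klk7, 1.003 for Klk6 and 0.27 for Klk5. Klk12 lies between Klk13 and Klk11, and Klk9 between Klk10 and Klk8, and Klk9 was added for this account after its values had been seen. Klk9 had 110, 116 and 294 CPM in K14-Cre+ libraries, against 92.4, 91.0 and 93.9 CPM in K14-Cre- libraries, a log2 fold change of 0.91 (SE 0.37, adjusted p 0.247 in edgeR). The K14-Cre- libraries were nearly equal, and K14-Cre+ replicate 3 was far above the rest. Klk12 had 0.861, 1.19 and 2.66 CPM in K14-Cre+ libraries, against 0.481, 0.452 and 0.685 CPM in K14-Cre- libraries, a log2 fold change of 1.51 (SE 0.47, adjusted p 0.179 in edgeR). Klk9 and Klk12 were both without overlap, whereas Klk8 and Klk10, on either side of Klk9, overlapped. Klk4, Klk15 and Klk1, beyond Klk5, had 25, 10 and 14 counts over all 6 libraries and were not tested.

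**Figure D4:**
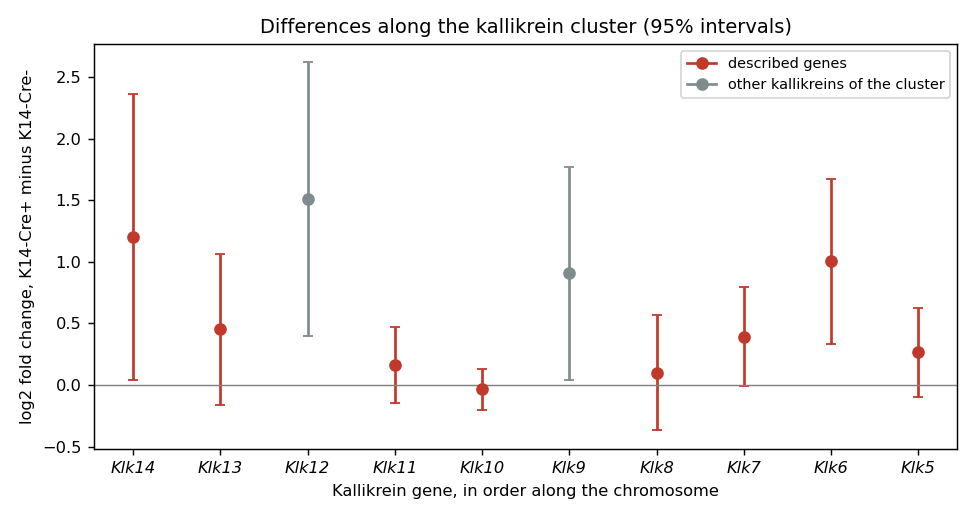
Log2 fold change, K14-Cre+ minus K14-Cre-, with 95% intervals for the tested kallikreins in their order along chromosome 7, with the described genes in red and Klk12 and Klk9 in grey. Klk10 has the narrowest interval, around 0, between Klk11 and Klk9.

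The spread of the members was wider among K14-Cre+ libraries than among K14-Cre- libraries. The coefficient of variation was larger in K14-Cre+ cells for 9 of 10 members, against 69.4% of all genes, with Klk14 as the exception at 29.2% in K14-Cre+ cells and 70.3% in K14-Cre- cells. In CPM, K14-Cre+ replicate 3 was the highest of the 6 libraries for each of the 10 members, against 29.1% of all genes. Its scaling factor for CPM, 0.885, was the lowest, against 0.975 to 1.06 in the other libraries, and a lower factor raises CPM. The ranking depends on this scaling: per total count, Klk10 was lower in that library than in any K14-Cre- library. St14 was also no longer highest there per total count, lying a little below K14-Cre- replicate 2. K14-Cre+ replicate 3 was also the only K14-Cre+ library whose Xist and Y-linked counts read as female, whereas 2 of the K14-Cre- libraries did. With sex as a covariate, a setting chosen with earlier results known, the log2 fold change was 0.76 for Spink5 (edgeR adjusted p 0.0961) and 1.07 for Klk6 (edgeR adjusted p 0.116).

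The summed level of transcripts of the upper epidermal layers, where these proteases are made, was also highest in the library where the members were highest. The 21 genes of that list found in the table summed to 111087, 132824 and 152029 CPM in K14-Cre+ libraries, against 111369, 89183 and 105411 CPM in K14-Cre- libraries. That library was K14-Cre+ replicate 3, and the sums, which were mostly Krt10 and Krt1, overlapped between the groups. Taken singly, 11 of these genes were higher in K14-Cre+ cells without overlap and 2 lower, against 2196 and 2147 of the 15525 genes tested. Krt77, Krt2 and Tgm3 were lowest, not highest, in K14-Cre+ replicate 3. The 12 genes of the basal layer summed to 18708, 18488 and 20553 CPM in K14-Cre+ libraries, against 21232, 18865 and 21129 CPM in K14-Cre- libraries. No gene of either list was at 0 in any library, and the part of the layer markers in the values of the members was not tested. Among the upper-layer genes 18 were positive and 3 negative in edgeR's fit. The median log2 fold change of this list was 0.33 over all libraries and 0.18 without K14-Cre+ replicate 3, where that of the members was 0.07. None of the 21 passed in edgeR, 10 were higher and 2 lower at an unadjusted p under 0.05, and DESeq2 called 5 higher and 2 lower. For calls in the lower direction, the shares of all genes were 8.48% at an unadjusted p under 0.05 in edgeR and 1.86% in DESeq2. Dsc1, a desmosomal cadherin, had 1271 ± 308 CPM in K14-Cre+ cells and 711 ± 80.0 CPM in K14-Cre- cells (SD, n = 3 each; edgeR adjusted p 0.103). Tgm1, the transglutaminase that cross-links the cornified envelope, had 418 ± 103 CPM in K14-Cre+ cells and 288 ± 16.1 CPM in K14-Cre- cells (edgeR adjusted p 0.179). In the other direction, the keratin gene Krt77 had 93.5 ± 23.5 CPM in K14-Cre+ cells and 178 ± 34.2 CPM in K14-Cre- cells (edgeR adjusted p 0.115). Krt2, a keratin of the upper layers, had 0.461, 0.221 and 0.143 CPM in K14-Cre+ libraries, against 10.5, 1.11 and 29.3 CPM in K14-Cre- libraries (edgeR adjusted p 0.104). Of 12 basal-layer genes 0 passed in edgeR, with 7 positive, 5 negative and a median of 0.04, which was -0.03 without K14-Cre+ replicate 3. Krt15, a basal keratin, had 1034 ± 175 CPM in K14-Cre+ cells and 1957 ± 217 CPM in K14-Cre- cells (edgeR adjusted p 0.0572). The integrin subunit gene Itgb4 had 339 ± 39.7 CPM in K14-Cre+ cells and 239 ± 5.63 CPM in K14-Cre- cells (edgeR adjusted p 0.0865). For Postn, which fibroblasts also express, the log2 fold change was -0.85, for Itga6 0.19 and for Krt5, the basal gene with the highest level per exon length, -0.10.

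The rest of the epidermal protease network was read from 4 lists, whose median log2 fold changes without K14-Cre+ replicate 3 were 0.19 for other serine proteases, 0.17 for cysteine and aspartic proteases, 0.25 for inhibitors and 0.18 for substrates. In each list 0 genes passed in edgeR and 0 in limma-voom. The other counts of these 4 lists stand beside the following shares of all genes. At an unadjusted p under 0.05 in edgeR, 10.3% of all genes were higher and 8.48% lower. DESeq2 called 3.6% of all genes higher and 1.86% lower. Dsc1, Dsg1a, Cdsn and Casp14 stand on one of these lists and on that of the upper layers. Of 18 other serine proteases tested, 14 were positive and 4 negative, with a median log2 fold change of 0.38, and 5 were higher and 1 lower at an unadjusted p under 0.05 in edgeR. Klk12 and Klk9, described above with the cluster, are on this list and among the 5 that were higher. DESeq2 called 1 gene of the list higher. The membrane protease gene Tmprss11f had 57.0, 73.9 and 133 CPM in K14-Cre+ libraries, against 44.8, 50.7 and 38.9 CPM in K14-Cre- libraries (log2 fold change 0.97, edgeR adjusted p 0.176). Prss27 and Tmprss11g had log2 fold changes of 0.37 and 0.65, and Tmprss4, which had the highest level per exon length on the list, one of -0.22. Prss8, or prostasin, a protease activated downstream of matriptase and named outside the rule for its role, overlapped between the groups at 90.0 ± 25.9 CPM in K14-Cre+ cells and 74.3 ± 2.65 CPM in K14-Cre- cells (SD, n = 3 each).

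Of 13 cysteine and aspartic proteases of cornification, 12 were positive and 1 negative, with a median log2 fold change of 0.20. At an unadjusted p under 0.05 in edgeR 5 were higher and 0 lower, and DESeq2 called 4 higher. Capn2, a calpain, had 85.9 ± 5.86 CPM in K14-Cre+ cells and 58.8 ± 6.33 CPM in K14-Cre- cells (SD, n = 3 each), with an edgeR adjusted p of 0.0755. For Ctsh, encoding cathepsin H, and Lgmn, encoding legumain, the log2 fold changes were 0.67 and 0.48. Blmh encodes bleomycin hydrolase, which breaks down filaggrin fragments, and had 863, 1017 and 1986 CPM in K14-Cre+ libraries, against 721, 630 and 700.5 CPM in K14-Cre- libraries. Asprv1, an aspartic protease that processes filaggrin and the gene with the highest level per exon length on the list, had 3593, 4224 and 7874 CPM in K14-Cre+ libraries, against 3533, 3354 and 3563 CPM in K14-Cre- libraries. As with the kallikreins, K14-Cre+ replicate 3 was the highest library for Blmh and Asprv1.

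Beside Spink5, 21 other protease inhibitors of the epidermis were tested. Of these 18 were positive and 3 negative, with a median log2 fold change of 0.38; 8 were higher and 0 lower at an unadjusted p under 0.05 in edgeR, and DESeq2 called 3 higher. Serpinb2, also called plasminogen activator inhibitor 2, had 167, 216 and 203 CPM in K14-Cre+ libraries, against 122, 127 and 125 CPM in K14-Cre- libraries, with a log2 fold change of 0.65 and an edgeR adjusted p of 0.0606. Spink7, of the same inhibitor family as Spink5, had 1.54, 1.55 and 16.5 CPM in K14-Cre+ libraries, against 0.241, 0.657 and 0.761 CPM in K14-Cre- libraries. Its edgeR adjusted p was 0.176, with most of its reads in K14-Cre+ replicate 3. Serpinb6c had 16.4, 17.2 and 60.3 CPM in K14-Cre+ libraries, against 7.06, 9.04 and 7.80 CPM in K14-Cre- libraries, and again replicate 3 was far above the other K14-Cre+ libraries. Serpinb8 had a log2 fold change of 0.50, and Wfdc21, the inhibitor on the list with the highest level per exon length, one of -0.37.

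Substrates of the desquamation proteases and the receptor F2rl1 made up a list of which 19 genes were tested. Of these 16 were positive and 3 negative, with a median log2 fold change of 0.32, and 8 were higher and 1 lower at an unadjusted p under 0.05 in edgeR. DESeq2 called 5 higher. Cdsn, which encodes corneodesmosin, had 1177, 1292 and 2337 CPM in K14-Cre+ libraries, against 1014, 975 and 979.7 CPM in K14-Cre- libraries (log2 fold change 0.69, edgeR adjusted p 0.216). Its groups were apart, with K14-Cre+ replicate 3 far above the rest. Dsg1b, a desmosomal cadherin, had 331 ± 69.4 CPM in K14-Cre+ cells and 218 ± 18.8 CPM in K14-Cre- cells (SD, n = 3 each; edgeR adjusted p 0.136). The defensin genes Defb14 and Defb1 had log2 fold changes of 1.41 and 1.06, with edgeR adjusted p-values of 0.169 and 0.179. F2rl1, the protease-activated receptor PAR2, named outside the rule for its role, had 45.7 ± 9.92 CPM in K14-Cre+ cells and 43.8 ± 3.67 CPM in K14-Cre- cells (SD, n = 3 each), and its groups overlapped.

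**Figure D5:**
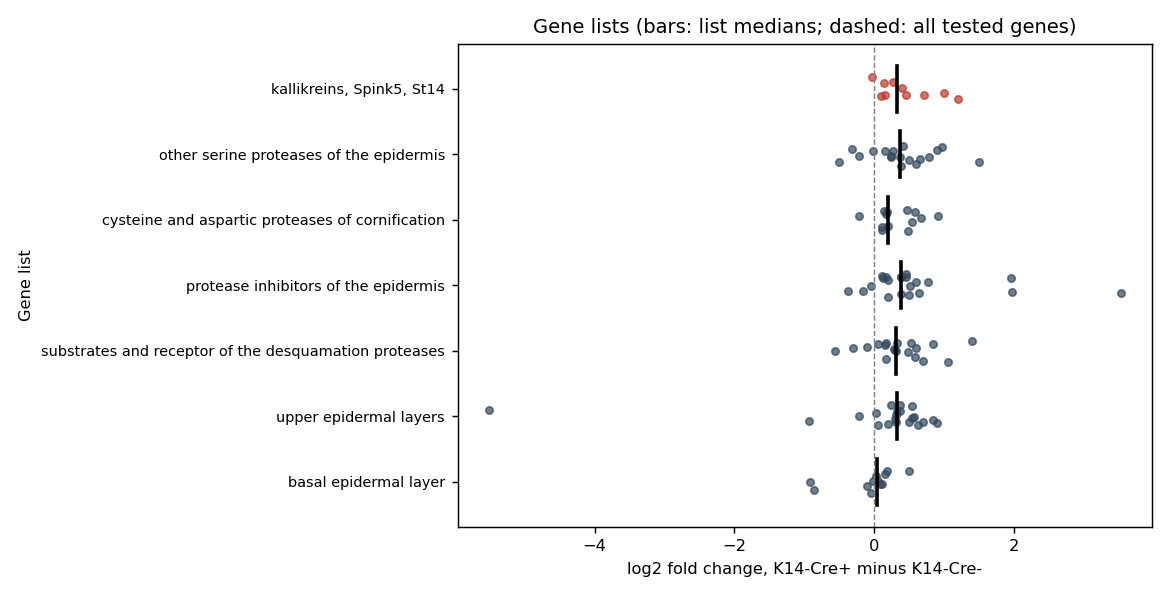
Log2 fold change, K14-Cre+ minus K14-Cre-, of each tested gene in the kallikrein set (red) and in 6 lists of the epidermis (dark), with black bars for list medians and a dashed line for the median of all tested genes. The median is 0.33 for the kallikrein set, 0.33 for the upper-layer list and 0.04 for the basal list, and without K14-Cre+ replicate 3 these are 0.07, 0.18 and -0.03.

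Other cells of the skin differed in their markers as well. The 22 hair follicle genes found summed to 3916, 3574 and 3196 CPM in K14-Cre+ libraries, against 4339, 5160 and 4366 CPM in K14-Cre- libraries, and the 14 sebaceous gland genes to 1045, 1114 and 887 CPM in K14-Cre+ libraries, against 1382, 1322 and 1228 CPM in K14-Cre- libraries. Both sums were lower in every K14-Cre+ library. Krt79 is on both lists and made up most of the sebaceous sum, with 737 ± 89.8 CPM in K14-Cre+ cells and 909 ± 37.2 CPM in K14-Cre- cells (SD, n = 3 each). It is among the lower genes of each list at an unadjusted p under 0.05 in edgeR. In edgeR 0 genes of either list passed, while at an unadjusted p under 0.05 8 follicle genes were lower and 1 higher, and 9 sebaceous genes were lower. DESeq2 called 4 of each list lower and 1 follicle gene higher. Over all genes, 8.48% were lower and 10.3% higher at an unadjusted p under 0.05 in edgeR. In DESeq2, 1.86% of all genes were called lower and 3.6% higher. The 10 melanocyte genes summed to 834, 839 and 728 CPM in K14-Cre+ libraries, against 406, 473 and 428 CPM in K14-Cre- libraries. In edgeR 7 of them rose, against 0.515% of all genes called in either direction. All 10 were higher at an unadjusted p under 0.05 in edgeR, and DESeq2 called 9 higher. Sums of T cell, myeloid and endothelial genes reached at most 56.0, 209 and 36.6 CPM in any library, with Cd207, Cldn5 and Emcn at 0 in some. In edgeR 1 of 13 myeloid genes rose and 1 fell, and 0 T cell and 0 endothelial genes passed. Among the myeloid genes 5 were higher and 3 lower at an unadjusted p under 0.05 in edgeR. Those higher were Lyz2, Mpeg1, Cd68, Adgre1 and Itgam. The lower ones were H2-Ab1, Cd74 and H2-Aa, with log2 fold changes of -2.29, -2.42 and -2.52. DESeq2 called 3 myeloid genes higher and 3 lower. At an unadjusted p under 0.05 1 T cell gene was higher and 5 lower, and 0 endothelial genes, while DESeq2 called 1 T cell gene higher and 3 lower and 0 endothelial genes. The 11 fibroblast genes summed to 2135, 737 and 643 CPM in K14-Cre+ libraries, against 978, 983 and 1713 CPM in K14-Cre- libraries, with 0 past the threshold, 0 higher and 1 lower at an unadjusted p under 0.05 in edgeR and 0 by DESeq2. The part of these cells in the values of the members was not tested.

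The genes most like Klk7, Spink5 and St14 across libraries were taken by Pearson's r of log2 CPM over the 6 libraries, among 13879 genes, as a description without a test. For Klk7 these were Xkrx, Rabgef1 and Stx12, with r of 0.9996, 0.9986 and 0.9985. Spink5 was most like Atp6ap2, Homer2 and Nipal1, and St14 most like Hacd2, Rps6ka6 and Mfsd14b. With so few points a high r is common: 774 genes had an r above 0.95 with Klk7, 539 with Spink5 and 175 with St14. All such values share the 6 libraries and their depth, and K14-Cre+ replicate 3 is the high point of Klk7, Spink5 and St14. None of these 9 genes passed the threshold in edgeR.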

How the data were processed

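RNA was sequenced from CD49f+ epidermal cells with a directional kit, per the labels' protocols. The authors deposited whole read counts per gene for the 6 libraries, not normalized, per the file headers. GSNAP, featureCounts and the build mm10 are named in the submitters' processing notes. Their versions and the strand setting are not stated there, so reads of overlapping genes on opposite strands may not be told apart. Of 38924 genes, 37607 were matched to a symbol.

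Genes were kept by filterByExpr (minimum count 10), leaving 15525. After TMM scaling (the trimmed mean of M values), edgeR 4.0.16 in R 4.3.3 gave two-sided quasi-likelihood tests, K14-Cre+ minus K14-Cre-, with no covariate, Benjamini-Hochberg adjustment over all tested genes and a threshold of 0.05. The common biological coefficient of variation was 0.172. CPM uses the scaled library totals. The 95% intervals come from the edgeR fit and include the spread between libraries, whereas the floor of 3 counts covers counting error only. Limma 3.58.1 (voom), DESeq2 1.42.0, other scalings and filters, a test against a 1.5-fold change, sex as a covariate and leaving out each library in turn were the alternatives. Replicate numbers follow accession order and pair no libraries. Libraries of a group differed by more than sampling noise, so none was taken for a copy of another; this does not show that they came from separate animals.

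The members and lists were chosen with earlier results of these data known. Named genes were the 10 members, Rnaseh2b, from each protease or layer list up to 4 genes with the smallest adjusted p and the one with the highest mean CPM per kilobase of exon, and the 3 genes most like each of Klk7, Spink5 and St14. Promoter sequences and start sites are those of RefSeq on GRCm38.p6, with windows given for the 8 kallikreins. Gene positions, exon lengths and overlaps between exons of different genes are from the deposited table. The 50-base words were read from transcripts of GENCODE M21 on the same build.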

Additional observations from a re-analysis of the deposited data

How the results depend on the processing

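No paired analysis was possible because the labels give the groups no shared replicate numbers. Of the members, 0 passed the threshold in edgeR, 2 in DESeq2 and 0 to 2 when a library was left out, the 2 being Klk6 and Spink5 without K14-Cre+ replicate 3. Klk8 reversed to -0.033 under total count scaling and to -0.16 without K14-Cre+ replicate 3, with a range of -0.16 to 0.26 over libraries left out, and the cause was not tested; the other members kept their direction under all 14 alternatives. Total count scaling put the median log2 fold change of all genes at -0.12, against -0.0048; under it Spink5 was at 0.58, Klk6 at 0.86, Klk5 at 0.14 and Klk11 at 0.03. Genes past the threshold numbered 80 (63 higher, 17 lower), against 41 (27 higher, 14 lower) under total count scaling, 847 in DESeq2, 142 with no filter beyond 1 count, 3 in a test against a 1.5-fold change, 42 with sex as a covariate and 0 to 422 when a library was left out. They numbered 25, 7 and 422 without K14-Cre+ replicate 1, 2 or 3 and 0, 0 and 1 without K14-Cre- replicate 1, 2 or 3. Each protease or layer list had 0 genes past the threshold in the main test. DESeq2 called 1 other serine protease, 4 cysteine and aspartic proteases, 3 inhibitors, 5 substrates, 7 upper-layer and 2 basal genes. Leaving out a library gave 0 to 2 cysteine and aspartic proteases, 0 to 2 inhibitors, 0 to 2 substrates, 0 to 3 upper-layer and 0 to 2 basal genes. For the basal list, total count scaling, no filter and the sex covariate each gave 1, and no filter gave 1 inhibitor. Of the 45 pairs of members, 43 to 45 kept their order of level in the alternatives run. With a library left out, the difference in the log2 ratio of Klk14 to Spink5, 0.75 over all libraries, ran from 0.20 to 1.34. With 12 to 80 counts a library, Klk14 is the member whose precision depth limits most.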
